A study of Mus musculus with 24 samples.

Results

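Cnr2, Fli1, Kcnj2, Arrb1, Slc43a2, Gcnt1, Megf9 and Zranb3 are 8 genes whose transcripts were far lower in mouse alveolar macrophages after lipopolysaccharide (LPS) than in control macrophages of the same age at postnatal day 1, 3 or 7 (D1, D3, D7). They were chosen by the log2 fold changes of LPS against control at those 3 ages, out of the 56691 genes of the count table, of which 11774 were tested. All 8 passed the filter on low values, an FPKM (counts scaled by exonic length and library total) of at least 1 in 2 or more libraries. Cnr2 and Zranb3 passed it through control libraries alone, since every LPS library lay below that level, though they would have passed on the D1, D3 and D7 controls alone. The D1, D3 and D7 responses are therefore given as descriptions without a test. The responses at D21 and D49, whose fold changes were not used in the choice, were tested. The genes and the tests were, however, chosen with earlier results of these data known.

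LPS, a cell wall component of Gram-negative bacteria, binds TLR4 on macrophages and sets off NF-kappa-B and interferon signalling, and large sets of transcripts go down while inflammatory ones go up. The 8 genes encode proteins of different kinds. Cnr2 encodes the cannabinoid receptor CB2, a Gi-coupled receptor of immune cells, and Arrb1 encodes beta-arrestin 1, which uncouples and internalises activated G protein-coupled receptors. Fli1 is a transcription factor of the ETS family with roles in blood cell development. Kcnj2 encodes the inwardly rectifying potassium channel Kir2.1, which holds the resting membrane potential, and Slc43a2 encodes LAT4, a transporter of large neutral amino acids. Gcnt1 is the core 2 N-acetylglucosaminyltransferase that branches O-glycans, among them selectin ligands. Zranb3 is a DNA translocase that remodels stalled replication forks, and Megf9 is a membrane protein with EGF-like domains whose function is little known.

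Alveolar macrophages were washed from the lungs of mice at postnatal day 1, 3, 7, 21 or 49, pooled from several mice, and kept for 4 h with LPS at 400 ng/mL or in medium without LPS (control), per the labels. The labels name the medium differently in different places and give no strain, sex or genotype. The control groups held 2 libraries at D1 and D7 and 3 at D3, D21 and D49, and the LPS groups held 3 at D1 and 2 at each of the other ages. Nothing in the labels says that replicates of a group came from separate pools of mice, so the spread behind the p-values is that between libraries and may be technical. In bulk RNA, fewer cells expressing a gene and less RNA per cell cannot be told apart.

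Library totals were 15.8 to 23.3 M counts over 24 libraries. All 16 alveolar macrophage markers examined were detected in every group, with a summed level of 6840 to 47000 CPM (counts scaled to a common total, here with TMM factors). The balance between GC-rich and GC-poor transcripts was not the same in all libraries. It was measured as GC deviation, the log2 offset of the most GC-rich against the most GC-poor tested genes, which ran from -3.13 to 2.83 and was beyond 1 in either direction in 10 libraries. At D21 and D49 it differed between the arms: controls lay at -0.03, -2.14 and -1.67 for D21 and -0.10, -2.07 and -3.13 for D49, and LPS libraries at 0.04 and -0.20 for D21 and -0.20 and -1.33 for D49. For this reason each tested response below is also given with GC deviation as a covariate and over the 14 libraries within 1, which leave 1 control library at D21 and 1 library in each arm at D49. The lone libraries are there assumed to vary like those of the other groups.

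The windows just upstream of the transcription starts are shown for 5 of the genes as a description. All 8 genes were chosen for falling with LPS, so their shared fall is no sign of shared control. The windows are the 250 bases before a RefSeq start (GRCm38.p6), read 5′ to 3′ on the gene's strand. RefSeq windows were found for 6 of the 8 genes, 11 windows in all. Those not shown include a Cnr2 and a Zranb3 window without CCAAT. The first bases after either Cnr2 start were not found in its GENCODE M21 transcripts. Capitals mark CCAAT or its reverse complement and, in Gcnt1, the ETS core GGAAGT. The Cnr2 window is chr4:135911430-135911679 (plus strand), the Kcnj2 window chr11:111065914-111066163 (plus), the Slc43a2 window chr11:75531444-75531693 (plus), the Gcnt1 window chr19:17356668-17356917 (minus) and the Zranb3 window chr1:128103048-128103297 (minus).
Cnr2: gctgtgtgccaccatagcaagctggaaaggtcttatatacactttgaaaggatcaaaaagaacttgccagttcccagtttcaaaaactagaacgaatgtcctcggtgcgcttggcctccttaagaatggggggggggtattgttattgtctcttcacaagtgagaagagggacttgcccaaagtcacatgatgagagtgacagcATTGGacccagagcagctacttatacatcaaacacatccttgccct
Kcnj2: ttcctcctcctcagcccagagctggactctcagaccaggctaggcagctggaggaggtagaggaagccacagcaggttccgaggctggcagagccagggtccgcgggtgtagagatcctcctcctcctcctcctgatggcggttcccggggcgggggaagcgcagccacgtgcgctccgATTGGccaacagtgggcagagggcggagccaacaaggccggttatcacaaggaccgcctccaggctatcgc
Slc43a2: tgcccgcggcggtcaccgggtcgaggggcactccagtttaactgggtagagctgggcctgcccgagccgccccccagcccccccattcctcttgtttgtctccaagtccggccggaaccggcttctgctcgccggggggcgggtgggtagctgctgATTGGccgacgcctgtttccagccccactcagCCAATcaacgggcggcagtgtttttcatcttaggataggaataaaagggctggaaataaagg
Gcnt1: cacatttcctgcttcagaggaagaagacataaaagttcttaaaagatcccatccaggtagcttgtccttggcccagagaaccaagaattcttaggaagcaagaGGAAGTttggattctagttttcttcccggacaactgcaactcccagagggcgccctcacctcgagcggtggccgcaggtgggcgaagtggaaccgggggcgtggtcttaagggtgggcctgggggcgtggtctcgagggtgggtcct
Zranb3: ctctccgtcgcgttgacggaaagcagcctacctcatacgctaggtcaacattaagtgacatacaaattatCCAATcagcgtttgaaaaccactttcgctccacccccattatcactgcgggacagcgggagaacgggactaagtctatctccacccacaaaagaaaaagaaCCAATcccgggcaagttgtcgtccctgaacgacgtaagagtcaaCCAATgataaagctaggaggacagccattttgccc

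Both strands of the 11 windows were searched for 4 motifs of factors active in macrophages and for CCAAT. The ETS core GGAAGT occurred in 2 windows, both of Gcnt1, against 19.7% of all 32851 windows of the table. The AP-1 letters TGANTCA (6.75% of all windows), an NF-kappa-B consensus (1.21%) and an interferon-stimulated response element (2.98%) occurred in 0 of the 11. CCAAT, looked for only after the windows had been read, occurred in 8 of the 11 windows, against 33.8% of all windows. It was in at least 1 window of each of the 6 genes, for which no share per gene was computed. Windows of the same gene are not separate draws, and genes with several windows have more chances to hold CCAAT. The Zranb3 window shown holds it 3 times and the Slc43a2 window 2 times. No match overlapped a match of another motif. A match is a run of letters and no measured site.

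LPS lowered all 8 transcripts at D21 and at D49, the ages at which they had not been chosen. By the quasi-likelihood (QL) test of edgeR with Benjamini-Hochberg adjustment over all tested genes, 8 of 8 fell at D21, when 6.74% of tested genes fell, and 8 of 8 fell at D49, when 4.98% did. Cnr2 and Zranb3, admitted through controls, are in these counts, which are given as a description; each also fell at both ages without a filter. The median log2 fold change of the 8 genes was -2.83 at D21 and -2.54 at D49, beside 0.01 and 0 over all tested genes. In every age every LPS library lay below every control library for each of the 8 genes. That separation was met by 25.8% of tested genes at D21 and 18% at D49. For the ages used in the choice it was met by 14.1% (D1), 15.7% (D3) and 32.5% (D7).

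**Figure D1:**
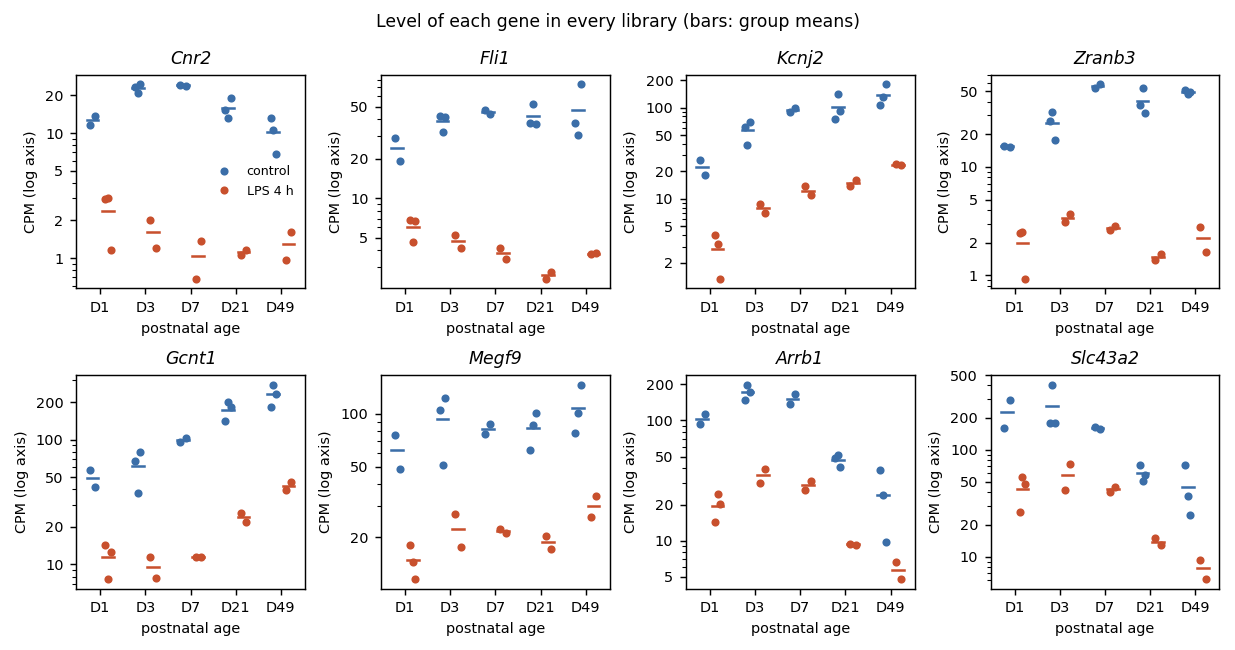
Level of each of the 8 genes in every library, in TMM-scaled CPM on a log axis, by postnatal age. Blue points are control libraries, orange points LPS libraries and bars group means; in all panels the LPS points lie below the control points of the same age, and for Kcnj2 and Gcnt1 both arms lie higher at D49 than at D1, while for Arrb1 and Slc43a2 both lie lower.

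Cnr2, the CB2 receptor, stood at 15.3, 13.3 and 19.0 CPM in the D21 controls and at 1.06 and 1.17 CPM with LPS. At D49 the controls read 13.2, 10.5 and 6.79 CPM and the LPS libraries 0.97 and 1.63 CPM. All 6 controls of these ages lay well above all 4 LPS libraries. The fall was -3.82 ± 0.47 (log2 fold change ± SE) at D21 (edgeR QL adjusted p = 1.77e-05) and -2.96 ± 0.45 at D49 (adjusted p = 0.000199). The LPS values rest on few counts, 15 to 27 per library at these ages against 90 to 303 in the controls. With the GC covariate the fall was -3.86 and -2.98, and over the 14 libraries -3.71 and -3.74.

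At the ages used in the choice, Cnr2 controls were 11.6 and 13.8 CPM at D1, 23.6, 20.8 and 24.6 CPM at D3 and 24.4 and 23.9 CPM at D7. The LPS libraries were 2.99, 3.04 and 1.17 CPM at D1, 2.02 and 1.20 CPM at D3 and 0.69 and 1.37 CPM at D7. Control levels were thus highest at D3 and D7, where all libraries lay above all D1, D21 and D49 controls, while the LPS libraries of all 5 ages stayed between 0.69 and 3.04 CPM. The log2 differences were -2.39 ± 0.39 at D1, -3.83 ± 0.47 at D3 and -4.54 ± 0.50 at D7.

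Arrb1, beta-arrestin 1, was 48.8, 51.8 and 41.4 CPM in D21 controls and 9.45 and 9.20 CPM with LPS. At D49 the controls spread widely, at 38.4, 24.1 and 9.81 CPM, and the LPS libraries were 6.69 and 4.83 CPM. The D49 control of 9.81 CPM is the library with the GC deviation of -3.13 and lay close to the LPS libraries without overlapping them. Arrb1 fell by 2.34 ± 0.41 on the log2 scale at D21 (edgeR QL adjusted p = 0.000506) and by 2.07 ± 0.41 at D49 (adjusted p = 0.00191). The D49 call was lost when the D49 libraries were fitted alone (adjusted p = 0.110). With the GC covariate the falls were -2.70 and -2.25, and over the 14 libraries -2.32 and -2.50.

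At the younger ages Arrb1 was more abundant in both arms. Controls were 93.2 and 113 CPM at D1, 148, 199 and 172 CPM at D3 and 137 and 166 CPM at D7, all above every D21 and D49 control. LPS libraries were 14.2, 24.3 and 20.1 CPM at D1, 30.1 and 39.7 CPM at D3 and 26.7 and 31.2 CPM at D7. Of these, 3 of the 4 LPS libraries of D3 and D7 lay within the range of the D49 controls and the fourth lay above it. The log2 differences with LPS were nearly level over these ages, -2.40 ± 0.37, -2.31 ± 0.40 and -2.39 ± 0.42.

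Fli1, the ETS transcription factor, stood at 37.3, 52.1 and 36.9 CPM in D21 controls and at 2.44 and 2.72 CPM with LPS. At D49 it was 37.3, 30.5 and 74.1 CPM in controls and 3.73 and 3.80 CPM with LPS. The falls were -4.02 ± 0.39 at D21 (edgeR QL adjusted p = 1.18e-06), a 16.3-fold lower level, and -3.65 ± 0.38 at D49 (adjusted p = 3.92e-06). The high D49 control is again the library at a GC deviation of -3.13. With the GC covariate the falls were -3.76 and -3.38, and over the 14 libraries -3.79 and -3.29.

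Fli1 controls were 28.7 and 19.4 CPM at D1, 42.4, 32.3 and 41.4 CPM at D3 and 47.4 and 43.7 CPM at D7. With LPS they were 6.81, 4.63 and 6.76 CPM at D1, 5.24 and 4.16 CPM at D3 and 4.18 and 3.46 CPM at D7. The mean control level was lowest at D1 and the mean LPS level highest there. The log2 difference was -1.99 ± 0.32 at D1, against -3.04 ± 0.37 at D3 and -3.58 ± 0.39 at D7. Fli1 was the gene with the seventh largest fall at D1 among well expressed genes that passed there, and it entered the choice through D3, where it was second.

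Kcnj2, the Kir2.1 channel, was 75.1, 142 and 91.7 CPM in D21 controls and 13.8 and 15.9 CPM with LPS. At D49 it was 107, 130 and 180 CPM in controls and 23.9 and 23.6 CPM with LPS. It fell by 2.79 ± 0.41 on the log2 scale at D21 (edgeR QL adjusted p = 0.000104) and by 2.55 ± 0.40 at D49 (adjusted p = 0.000274). The falls were -2.41 and -2.23 with the GC covariate and -2.27 and -2.14 over the 14 libraries.

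In both arms Kcnj2 lay higher at each later age studied when group means are compared. Controls were 26.8 and 18.3 CPM at D1, 61.2, 38.7 and 69.0 CPM at D3 and 88.7 and 97.9 CPM at D7. LPS libraries were 3.97, 3.19 and 1.34 CPM at D1, 8.74 and 6.98 CPM at D3 and 13.7 and 10.9 CPM at D7. The LPS libraries of D49 reached the range of the unstimulated D1 macrophages. The log2 difference stayed nearly level, at -2.98 ± 0.38, -2.84 ± 0.41 and -2.92 ± 0.43 for D1, D3 and D7.

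Slc43a2, the amino acid transporter LAT4, was 71.4, 51.3 and 58.6 CPM in D21 controls and 14.9 and 12.8 CPM with LPS. At D49 it was 72.4, 37.3 and 24.7 CPM in controls and 9.40 and 6.21 CPM with LPS. It fell by 2.13 ± 0.49 on the log2 scale at D21 (edgeR QL adjusted p = 0.00556) and by 2.52 ± 0.50 at D49 (adjusted p = 0.00203). The D21 call was lost without D21 LPS library 1 (-2.24, adjusted p = 0.0563) and without D21 LPS library 2 (-2.06, adjusted p = 0.0592), each of which leaves 1 LPS library. The falls were -2.68 and -2.87 with the GC covariate and -2.30 and -2.92 over the 14 libraries.

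Slc43a2 controls spread widely at D1 and D3. Controls were 161 and 291 CPM at D1, 179, 407 and 176 CPM at D3 and 164 and 157 CPM at D7. With LPS they were 26.3, 55.8 and 48.2 CPM at D1, 42.4 and 74.1 CPM at D3 and 40.4 and 45.0 CPM at D7. The 2 highest controls, at D1 and D3, are libraries with GC deviations of 2.29 and 1.90. The log2 differences were -2.38 ± 0.44, -2.13 ± 0.48 and -1.91 ± 0.50.

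Gcnt1, the core 2 glycosyltransferase, was 141, 199 and 183 CPM in D21 controls and 26.0 and 22.0 CPM with LPS. At D49 it was 184, 277 and 232 CPM in controls and 39.2 and 45.8 CPM with LPS. The fall was -2.86 ± 0.35 at D21 (edgeR QL adjusted p = 1.54e-05) and -2.44 ± 0.34 at D49 (adjusted p = 8.49e-05). It was -2.54 and -2.19 with the GC covariate and -2.49 and -2.21 over the 14 libraries.

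Gcnt1 controls were 57.4 and 41.6 CPM at D1, 67.1, 37.5 and 80.4 CPM at D3 and 95.7 and 103 CPM at D7. With LPS the libraries held 14.2, 7.67 and 12.7 CPM at D1, 11.5 and 7.75 CPM at D3 and 11.4 CPM in both at D7. Controls of D7 lay above all controls of D1 and D3 while the LPS libraries of these 3 ages overlapped, so the log2 difference widened from -2.10 ± 0.31 through -2.68 ± 0.35 to -3.12 ± 0.37.

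Megf9 was 62.5, 86.1 and 101 CPM in D21 controls and 20.2 and 17.2 CPM with LPS, and 78.0, 101 and 147 CPM against 26.1 and 34.3 CPM at D49. Its falls were the smallest of the 8 genes at D49 and close to that of Slc43a2 at D21, with -2.15 ± 0.38 at D21 (edgeR QL adjusted p = 0.000613) and -1.84 ± 0.38 at D49 (adjusted p = 0.00256). The D49 call was lost without D49 LPS library 1 (-1.66, adjusted p = 0.0991) and in the fit of D49 libraries alone (adjusted p = 0.0517). The falls were -1.75 and -1.49 with the GC covariate and -1.68 and -1.55 over the 14 libraries.

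Megf9 controls were 76.0 and 48.4 CPM at D1, 105, 51.3 and 122 CPM at D3 and 76.6 and 87.2 CPM at D7, a span that overlaps both older ages. With LPS they were 18.2, 14.5 and 11.6 CPM at D1, 26.9 and 17.6 CPM at D3 and 22.4 and 21.2 CPM at D7. The log2 differences were -2.08 ± 0.35, -2.06 ± 0.38 and -1.91 ± 0.40.

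Zranb3, the fork-remodelling translocase, had the most negative fold changes of the 8 at D21 and D49. D21 controls were 37.4, 53.3 and 31.3 CPM and LPS libraries 1.38 and 1.56 CPM, and D49 controls were 51.8, 47.6 and 48.9 CPM and LPS libraries 2.77 and 1.63 CPM. The log2 fold change was -4.79 ± 0.44 at D21 (edgeR QL adjusted p = 5.48e-07), a 27.6-fold lower level, and -4.49 ± 0.43 at D49 (adjusted p = 1.48e-06), a 22.4-fold lower level. The LPS values rest on 24 to 43 counts per library against 498 to 992 in the controls. They were -4.83 and -4.52 with the GC covariate and -4.61 and -4.20 over the 14 libraries.

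Zranb3 controls were 15.7 and 15.4 CPM at D1, 26.8, 32.1 and 17.6 CPM at D3 and 53.7 and 58.0 CPM at D7. LPS libraries were 2.48, 2.49 and 0.93 CPM at D1, 3.07 and 3.68 CPM at D3 and 2.63 and 2.85 CPM at D7. The control level at D7 lay above all controls of D1 and D3, while LPS libraries stayed at or below 3.68 CPM at all 5 ages. The log2 difference went from -2.97 ± 0.36 at D1 and -2.91 ± 0.39 at D3 to -4.35 ± 0.43 at D7.

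**Figure D2:**
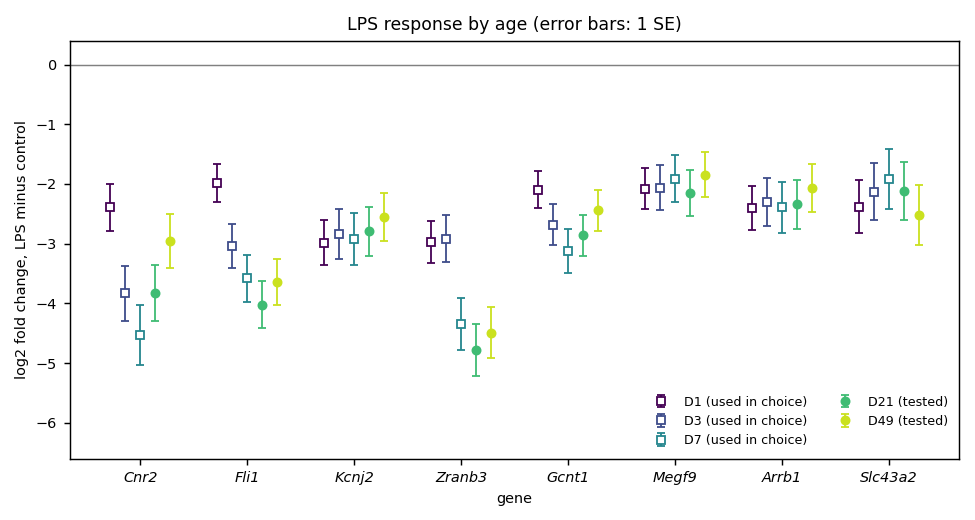
Log2 fold change of LPS against control for each of the 8 genes at the 5 ages, with bars of 1 standard error. Open squares mark the ages used to choose the genes and filled circles the ages tested; all values are below 0, from -1.84 to -4.79, and Zranb3, Fli1 and Cnr2 spread most over the ages.

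Among all tested genes the 8 sat in the lower tail at the tested ages, as the plot of fold changes over all genes shows. Ranked by fold change, they fell between the 0.399 and 3.13 percentile at D21 and between the 0.586 and 3.70 percentile at D49. They were not the deepest falls: Zranb3, the deepest of them, ranked 47 at D21 and 69 at D49.

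**Figure D3:**
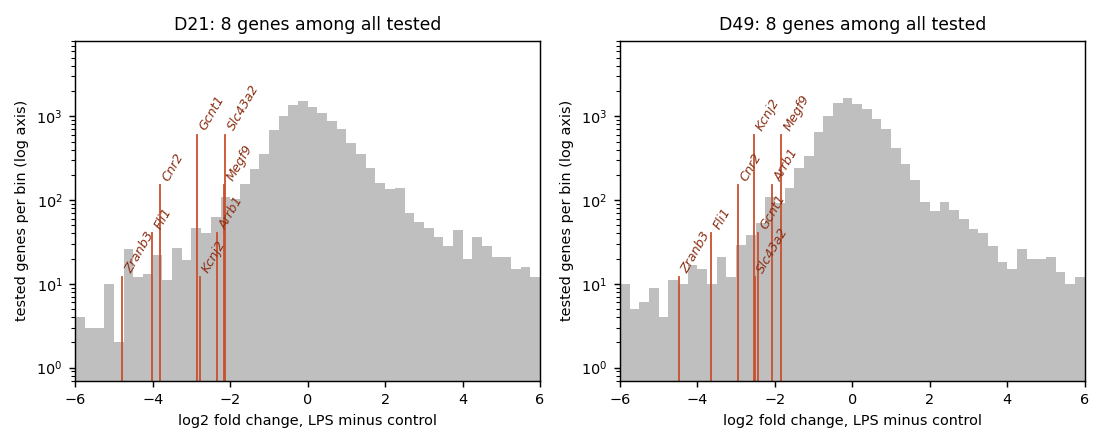
Number of tested genes (log axis) by log2 fold change of LPS against control at D21 and at D49, in grey bars. Orange lines mark the fold changes of the 8 genes, from -4.79 to -2.13 at D21 and from -4.49 to -1.84 at D49, and their heights only separate the names; 54 genes at D21 and 63 at D49 lie beyond the plotted range.

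Genes close to the limit of the choice moved by similar amounts. The order is over genes that passed and whose higher group had a mean FPKM of 5 or more. By edgeR QL 1.93% of tested genes fell at D1, 2.57% at D3 and 4.47% at D7. The D1 order ran from Cd300lb (-2.59) through Arrb1, Slc43a2, Arhgap19 (-2.34), Gcnt1 and Megf9 to Fli1 and Rab7b (-1.98). At D3, Cnr2, Fli1 and Kcnj2 (-2.84) were followed by Klhl6 (-2.82). At D7, Apcs (-5.48), Cnr2 and Zranb3 (-4.35) were followed by Hpse (-3.96). Cd300lb, Arhgap19 and Apcs lay ahead of chosen genes and are not among the 8.

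The response at D49 was not distinguishable from that at D21 for any of the 8 genes. By edgeR QL, 0 of 8 passed the test of the difference in LPS response, and 0 of the 11774 tested genes did (0%). At an unadjusted p under 0.05 the counts were 0 of 8 and 179 of all tested genes. After adjustment DESeq2 called 0 of 8 and 6 genes in all, and limma on log2(FPKM + 1) called 0 of 8 and 8 genes in all. The count over all genes was 13 without a filter, 15 with the GC covariate and 20 with covariate and block, and 0 of 8 passed in each. Over the 14 libraries, with 1 control library at D21 and 1 library in each arm at D49, Slc43a2 differed most in size, by -0.62. In the main fit the differences were 0.86 for Cnr2 (95% interval -0.29 to 2.02) and 0.42 for Gcnt1 (-0.44 to 1.28). They were 0.38 for Fli1 (-0.55 to 1.30) and -0.40 for Slc43a2 (-1.65 to 0.86). The others were 0.31 for Megf9 (-0.66 to 1.29), 0.30 for Zranb3 (-0.71 to 1.30), 0.27 for Arrb1 (-0.77 to 1.32) and 0.24 for Kcnj2 (-0.77 to 1.25). These intervals leave room for differences of more than 1 log2 unit in each gene, so equal responses are not shown. For Cnr2 and Arrb1 the sign turned over the 14 libraries, to -0.02 and -0.17.

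Control levels at D21 and D49 also gave no call among the 8 genes, when 1.26% of tested genes (148) differed. Arrb1 came closest, at 47.3 ± 5.37 CPM (SD, n = 3) at D21 and 24.1 ± 14.3 CPM (n = 3) at D49, a log2 difference of -0.97 ± 0.33 with an edgeR QL adjusted p of 0.294. Without adjustment edgeR QL put 1 of the 8 genes under the threshold, Arrb1 (unadjusted p = 0.00929 beside the adjusted p above), and 906 of all tested genes. DESeq2 likewise counted 1 of the 8 before adjustment, with 928 genes in all, and 0 after it. Adding the GC covariate, which raised the genes called from 148 to 401, gave -0.97 for Arrb1 with an edgeR QL adjusted p of 0.0094, and it also passed without D49 control library 1 (-1.48, adjusted p = 0.0222). It read -0.35 over the 14 libraries (adjusted p = 0.757). Cnr2 differed by -0.64 (95% interval -1.32 to 0.04), Slc43a2 by -0.43 (-1.21 to 0.35), Kcnj2 by 0.44 (-0.20 to 1.07), Gcnt1 by 0.40 (-0.14 to 0.95) and Megf9 by 0.38 (-0.23 to 0.99). Zranb3 differed by 0.28 (-0.32 to 0.88) and Fli1 by 0.17 (-0.40 to 0.73).

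Set side by side per length, the order of the genes in control macrophages turned over between the youngest and the oldest age. At D1 Slc43a2 was highest at 22.5 ± 9.15 FPKM (SD, n = 2), followed by Arrb1 at 9.23 ± 1.26, Gcnt1 at 8.59 ± 1.94, Megf9 at 7.56 ± 2.37 and Fli1 at 6.89 ± 1.89 FPKM. Kcnj2 followed at 4.14 ± 1.10, Cnr2 at 3.18 ± 0.39 and Zranb3 at 1.71 ± 0.02 FPKM. From Arrb1 to Fli1, and for Kcnj2 and Cnr2, the libraries of neighbours in this order overlapped. At D49 Gcnt1 was highest at 40.1 ± 8.05 FPKM (SD, n = 3), followed by Kcnj2 at 25.6 ± 6.86, Fli1 at 13.6 ± 6.73 and Megf9 at 13.2 ± 4.24 FPKM. Zranb3 at 5.44 ± 0.24, Slc43a2 at 4.46 ± 2.46, Cnr2 at 2.55 ± 0.80 and Arrb1 at 2.16 ± 1.28 FPKM closed the order. At D49 the libraries of neighbours overlapped throughout, except those of Megf9 and Zranb3.

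Genes with unlike age patterns also differed in base composition. Arrb1 and Slc43a2, whose levels were lower in the older macrophages, have longest transcripts of 53.5% GC each, near the 77 percentile of tested genes. Kcnj2, Gcnt1 and Megf9 have 41.2%, 42.1% and 42.1% GC, between the 12.5 and 16.3 percentile, and Kcnj2 and Gcnt1 were higher in the older macrophages. Fli1, Zranb3 and Cnr2 lie between, at 44.5%, 46.7% and 51.7%. Over the 10 group means of log2 CPM, Pearson's r was 0.98 between Arrb1 and Slc43a2, 0.94 between Kcnj2 and Gcnt1 and 0.28 between Arrb1 and Gcnt1. It was 0.98 between Fli1 and Zranb3 and 0.97 between Cnr2 and Fli1.

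The GC deviation of the libraries moved with age and with these levels. Within the D3 controls, library 2 (GC deviation 1.90) held 407 CPM of Slc43a2 against 179 and 176 CPM in the libraries near 0, but 37.5 CPM of Gcnt1 against 67.1 and 80.4 CPM and 38.7 CPM of Kcnj2 against 61.2 and 69.0 CPM. The first control library of each age lay between -0.10 and 0.36. In these 5 libraries Arrb1 was 93.2, 148, 137, 48.8 and 38.4 CPM from D1 to D49, and Gcnt1 was 57.4, 67.1, 95.7, 141 and 184 CPM. These values come from 1 library per age and have no replicate check. The part of GC deviation in the age patterns was not tested.

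**Figure D4:**
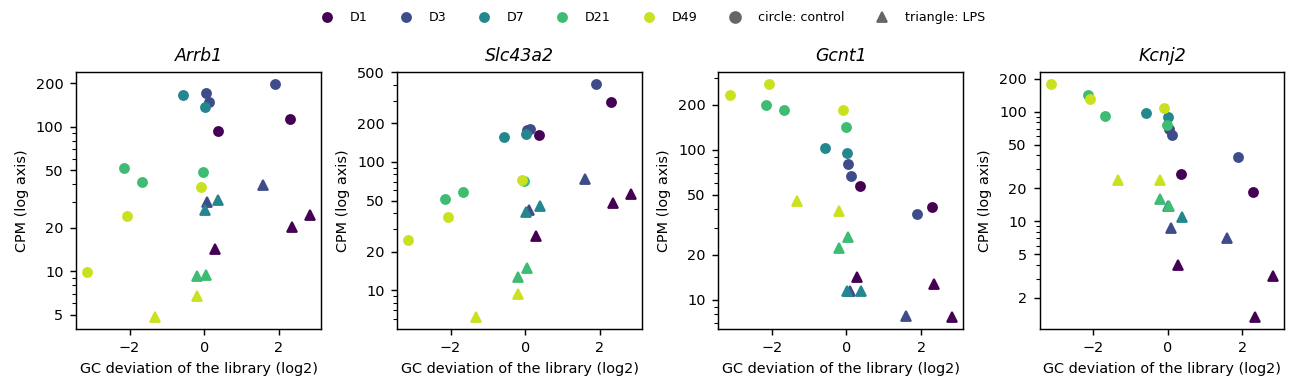
Level of Arrb1, Slc43a2, Gcnt1 and Kcnj2 in each library (TMM-scaled CPM, log axis) against the GC deviation of the library, circles for control and triangles for LPS, coloured by age. Among controls, Arrb1 (9.81 CPM) and Slc43a2 (24.7 CPM) are lowest and Kcnj2 (180 CPM) highest in the D49 library at -3.13, and within each age the LPS libraries lie below the controls.

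The transcripts most alike over the 10 group means were named by Pearson's r on mean log2 CPM, as a description, since the points share libraries, depth and base composition. Cnr2 was followed most closely by Klhl6 (r = 0.989) and Tnrc6b (0.985), and Fli1 by Soat1 (0.991) and Rnf144b (0.990). Zranb3 was followed by Hdac4 (0.994) and Myo5a (0.992), Megf9 by Fam3c (0.992), and Kcnj2 by Stx7 (0.994) and Atp8a1 (0.990). Arrb1 was followed by Prim1 (0.992) and Cep128 (0.983), Slc43a2 by Cerk (0.981) and Fads1 (0.979), and Gcnt1 by Fam120a (0.987) and Mospd1 (0.984). Prim1 and Cep128, closest to the GC-rich Arrb1, have 44.0% and 48.0% GC, and Cerk and Fads1, closest to the GC-rich Slc43a2, 55.5% and 52.2%. Near the GC-poor genes, Stx7 and Atp8a1 (Kcnj2) have 43.2% and 44.6% GC and Fam3c (Megf9) 42.9%. Fam120a and Mospd1 (Gcnt1) have 51.0% and 39.1%. The part of base composition in these likenesses was not tested. Likeness of pattern did not mean likeness of size: at D21 Klhl6 fell by 1.85 on the log2 scale (edgeR QL adjusted p = 0.000711) and Soat1 by 2.32 (adjusted p = 6.30e-06), while Stx7 differed by -0.67 and did not pass (adjusted p = 0.151).

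Most tested genes of the same families and pathways, 218 in 9 lists without the 8 genes, did not pass with LPS. Of the 149 tested, 19 fell and 21 rose at D21 (12.8% and 14.1%, against 6.74% and 6.77% of all tested genes), and 12 fell and 15 rose at D49 (8.05% and 10.1%, against 4.98% and 5.24%). Without D21 LPS library 1 or 2, the D21 counts were 8 and 6 falls and 13 rises each, and without D49 LPS library 1 or 2 the D49 falls were 6 and 4. Without D49 control library 1 the D49 rises were 23. With the GC covariate 29 fell at D21 and 25 fell and 23 rose at D49. At the younger ages 5, 5 and 15 of them fell (D1, D3, D7) and 6, 10 and 13 rose, when 3.74%, 4.43% and 5.15% of all tested genes rose. The counts per list below are to be read beside the D21 and D49 shares of all tested genes. A gene that did not pass is not shown to be unchanged.

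Genes that regulate receptors moved both ways. In the lists of 10 and 14 tested genes here, counts of 0 or 1 cannot be told apart from the shares over all tested genes. Of 10 tested endocannabinoid genes 0 rose at D21 or D49 and 1 fell at D21, Napepld, which makes N-acylethanolamines (-1.32 ± 0.32, edgeR QL adjusted p = 0.00919). Of 14 tested arrestins, receptor kinases and RGS proteins, 2 fell and 1 rose at D21 and 3 fell and 1 rose at D49. Rgs2, a GTPase activator that damps G protein signals, fell from 84.4 ± 8.48 to 17.3 ± 1.57 CPM at D21 (-2.29 ± 0.30, adjusted p = 3.02e-05). The receptor kinase Grk5 fell from 56.1 ± 19.3 to 18.1 ± 1.13 CPM at D49 (-1.64 ± 0.28, adjusted p = 0.000606), while its relative Grk3 rose from 103.8 ± 15.0 to 333 ± 11.1 CPM at D21 (1.68 ± 0.25, adjusted p = 0.000118).

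Other myeloid G protein-coupled receptors also moved both ways. Of 25 tested, 10 rose and 2 fell at D21 and 8 rose and 3 fell at D49, with a median log2 fold change of 0.43 and 0.75. The chemerin-binding receptor Ccrl2 rose from 58.7 ± 27.5 to 405 ± 88.4 CPM at D49 (2.79 ± 0.37, edgeR QL adjusted p = 4.94e-05), and the lysophosphatidylserine receptor Gpr34 rose at D21 (2.87 ± 0.43, adjusted p = 0.000134). The chemokine receptor Cxcr4 fell at D49 (-1.28 ± 0.31, adjusted p = 0.0103), as did the prostaglandin E2 receptor Ptger4 (-1.37 ± 0.34, adjusted p = 0.0113), whose call was lost without D49 control library 3 and without either D49 LPS library. The Cxcr4 call was lost without either D49 LPS library.

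Calls among relatives of the transcription factor and the channel are given beside the shares over all tested genes. Of all tested genes, 6.74% fell and 6.77% rose at D21, and 4.98% fell and 5.24% rose at D49. In lists of 14 and 5 tested genes, counts of 0 or 1 cannot be told apart from these shares. Of 14 tested ETS factors other than Fli1, 1 fell at D21, Spic, a factor of red pulp macrophages (-1.56 ± 0.34, edgeR QL adjusted p = 0.00402), and 0 passed at D49. Of 5 tested potassium channel genes other than Kcnj2, 1 rose at D21, Kcna3, a voltage-gated channel (3.78 ± 1.05, adjusted p = 0.0200), and 0 passed at D49.

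Amino acid transporters other than Slc43a2 numbered 19 tested, of which 3 rose and 2 fell at D21 and 2 rose and 1 fell at D49. The taurine transporter Slc6a6 fell from 1138 ± 92.6 to 322 ± 63.1 CPM at D21 (-1.82 ± 0.30, edgeR QL adjusted p = 0.000319). The cationic amino acid transporter Slc7a2 rose from 4047 ± 917 to 13725 ± 449 CPM at D49 (1.76 ± 0.26, adjusted p = 0.000162). Slc3a2, the heavy chain partner of several transporters, rose at D21 (1.97 ± 0.49, adjusted p = 0.0107), a call lost without D21 control library 2 and without D21 LPS library 2.

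Of 25 tested genes of mucin-type O-glycan synthesis and sialylation other than Gcnt1, 3 rose and 3 fell at D21 and 2 rose and 2 fell at D49. Galnt3, which starts O-glycan chains, fell from 164 ± 28.0 to 59.1 ± 4.51 CPM at D49 (-1.47 ± 0.23, edgeR QL adjusted p = 0.000212), and Galnt4 fell at D21 (-1.31 ± 0.29, adjusted p = 0.00482), a call lost without either D21 LPS library. The sialyltransferase St3gal1, which caps the core that Gcnt1 branches, rose from 53.3 ± 16.0 to 381 ± 56.6 CPM at D21 (2.84 ± 0.60, adjusted p = 0.00300).

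Of 29 tested genes of replication fork remodelling other than Zranb3, 7 fell and 1 rose at D21 and 2 fell and 1 rose at D49, and the list's median was -0.62 and -0.46 on the log2 scale. Among those that fell at D21 were Brca2 (-2.98 ± 0.48, edgeR QL adjusted p = 0.000250), Brca1 (-1.97 ± 0.34), Blm (-1.70 ± 0.39), Fancd2 (-1.64 ± 0.39), Tipin (-1.14 ± 0.36) and Rad18 (-1.09 ± 0.32), which serve recombination and fork protection. Fancm, a fork translocase, rose at D21 (1.32 ± 0.31) and D49 (2.29 ± 0.31, adjusted p = 6.38e-05). Tipin rested on a narrow margin (adjusted p = 0.0434) and lost its call in 9 of 18 alternatives, among them leaving out any of the 5 D21 libraries. Of 8 tested proteins with many EGF domains other than Megf9, 2 rose and 1 fell at D21, among them the macrophage surface protein Adgre1 (0.92 ± 0.24, adjusted p = 0.0131, a call lost in 6 of 18 alternatives). At D49 1 rose, Notch2 (0.80 ± 0.24, adjusted p = 0.0400, a call lost in 11 of 18 alternatives). The gene that fell was at both ages Thbd, thrombomodulin (-1.19 ± 0.36 at D21 and -1.87 ± 0.38 at D49, adjusted p = 0.0324 and 0.00282).

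Markers of B cells, endothelium and platelets were mostly low, while the dendritic and monocyte lists summed higher at D21 and D49. The 8 dendritic markers summed to 442 to 460 CPM with LPS and 320 to 406 CPM in control at D21. At D49 they summed to 702 to 847 and 556 to 1373 CPM, and Cd24a read 175 to 1359 CPM over all libraries. The 12 monocyte and interstitial macrophage markers summed to 221 to 227 CPM with LPS and 141 to 193 CPM in control at D21. At D49 they summed to 203 to 237 and 85.3 to 233 CPM. Of 11 B cell markers, Cd22 lay at 7.82 to 72.9 CPM and the other 10 at 1.08 CPM or less in every library, Pax5 and Ebf1 being at 0 in 17 of the 24 libraries each. The 10 endothelial markers summed to 26.9 to 27.0 CPM with LPS and 32.2 to 49.4 CPM in control at D21, to 14.3 to 20.3 and 15.0 to 48.9 CPM at D49, and to 26.1 to 29.7 and 56.0 to 56.6 CPM at D7. Their sum was carried mostly by Vwf and Pecam1, while Cldn5 was at 0 in 23 libraries and Tie1 in 17. Platelet markers summed to 3.32 CPM or less in every library, and Gp1bb was at 0 in all 24.

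Markers of other contents of the lavage also differed between the arms at some ages. Neutrophil markers summed to 40.7 to 46.5 CPM with LPS and 91.5 to 118 CPM in control at D21. At D49 they summed to 75.5 to 86.0 and 96.7 to 121 CPM, and at D7 to 73.2 to 77.2 and 80.2 to 90.4 CPM. At D3 their order was reversed, 125 to 162 CPM with LPS and 78.9 to 118 CPM in control. At D1 the arms overlapped, at 168 to 242 and 122 to 183 CPM. S100a8 (13.0 to 201 CPM), Mmp8 (1.86 to 71.5 CPM) and Cxcr2 (1.45 to 63.6 CPM) reached the highest levels, with Elane and Ly6g at 0 in 17 libraries each. Cxcr2 itself fell with LPS at D3 (-2.76 ± 0.33). T and NK cell markers summed to 0.39 to 0.69 CPM with LPS and 2.06 to 2.44 CPM in control at D21. At D49 their sums overlapped, at 1.03 to 2.28 and 1.41 to 2.73 CPM. The 6 exocrine gland genes summed to 9.58 to 9.82 CPM with LPS and 1485 to 1773 CPM in control at D21, and to 7.25 to 9.32 and 1301 to 2387 CPM at D49. At D1 the order was the other way round, 854 to 1321 CPM with LPS and 0.23 to 0.62 CPM in control. Skeletal muscle genes summed to 0.13 to 0.85 CPM with LPS and 22.8 to 291 CPM in control at D21. Lung epithelial markers summed to 35.5 to 40.5 CPM with LPS and 49.2 to 63.2 CPM in control at D21. At D49 they summed to 30.7 to 37.7 and 46.7 to 59.6 CPM, but at D1 to 58.7 to 95.3 and 42.9 to 54.9 CPM. Fibroblast markers summed to 4.72 to 6.67 and 7.37 to 12.1 CPM at D21, and to 3.73 to 5.33 and 8.17 to 13.1 CPM at D49. The part of dendritic, monocyte, endothelial, neutrophil, lymphocyte, gland, muscle, lung epithelial and fibroblast RNA in the falls was not tested.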

How the data were processed

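RNA-seq of 24 libraries was used, 13 of control and 11 of LPS-treated macrophages in 10 groups, assigned by their titles. The deposited table gives whole-number counts per Ensembl gene with exonic gene lengths, as found in the file. The submitters' processing notes name STAR, DESeq2 and the build GRCm39. The sources used here give no version, counting tool, annotation or use of strand, so reads of overlapping genes cannot be told apart. Libraries were made from poly(A) RNA, per the labels' protocols.

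Symbols were matched for 52073 of 56691 genes from GENCODE M21, and those without a symbol (0.904% of counts) include 324 tested genes. The 11774 genes tested reached an FPKM of 1 in at least 2 libraries. FPKM was computed from counts, exonic lengths and library totals, and CPM was TMM-scaled. The counts were fitted in R 4.3.3 by edgeR (version 4.0.16, quasi-likelihood or QL test), using a mean for each of the 10 groups over all 24 libraries. P-values were adjusted by Benjamini-Hochberg over the 11774 genes, with 0.05 as the threshold. Standard errors come from the QL F statistic. The script was checked on simulated data with 50 genes set at each of 4 log2 fold changes at D21. The test called 44% of the genes set at -2, 62% at 2 and 6% each at -1 and 1. Most changes of 1 log2 unit would thus go uncalled.

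The 8 genes, the lists and the tests were chosen with earlier results of these data known, and the D1, D3 and D7 responses were part of the choice. Genes outside the 8 were named by rule: the 2 most alike per gene, up to 2 falls and 2 rises per list with the largest change at D21 or D49 and an FPKM of at least 5, and the genes next to the limit of the choice. Napepld, Spic, Kcna3, Thbd, Fancm and the fork genes other than Tipin were named after their values were seen. A few genes these choices named are left out of the text.

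Replicates had Spearman correlations of 0.922 to 0.992 across genes, and none was a copy of another (smallest chi-square per degree of freedom 14.4). GC deviation used the longest GENCODE M21 transcript, known for 97.2% of tested genes, and a prior of 2. RefSeq windows are on GRCm38.p6, not the authors' build. All sample columns were used. Alternatives were RLE and upper-quartile factors, DESeq2 1.42.0, limma 3.58.1 on log2(FPKM + 1) and log2(FPKM + 0.1), no filter, a minimum FPKM of 5, a replicate block, a GC covariate, both together, the 14 libraries within a GC deviation of 1, fits of fewer ages, and each library left out in turn.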

Additional observations from a re-analysis of the deposited data

How the results depend on the processing

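Of 144 values of the 8 genes at D21 under 18 alternatives, 142 kept their direction and call and 2 lost the call, and of 144 at D49, 141 and 3, with 0 reversed in either; the lost calls are named with their genes. With each library of the age left out in turn, 7 to 8 of the 8 genes fell at D21 and 7 to 8 at D49, and 0 differed in response between the ages in every case. Between D21 and D49 controls 0 to 1 changed (all tested genes 148, from 45 in the D21 and D49 libraries alone to 401 with the GC covariate), Arrb1 without D49 control library 1, with the GC covariate (1) and with the covariate and block (1).

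All tested genes that fell at D21 numbered 793, against 1228 with the GC covariate, 1232 with covariate and block, 412 in the D21 and D49 libraries alone and 240 to 732 with a library left out. At D49 the 586 falls became 1076, 1058, 309, 102 with D49 alone, and 211 to 750. Of the falls of the 8 genes at D21 and D49, limma on log2(FPKM + 1), a scale that understates falls of genes near 0, moved 6 by over 1.5 times, with their calls kept: it gave -1.98 and -1.33 for Cnr2 and -2.23 and -2.25 for Zranb3 at D21 and D49, and -0.95 for Arrb1 and -1.49 for Slc43a2 at D49.

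Listed genes that fell numbered 5, 5, 15, 19 and 12 from D1 to D49. With the GC covariate they were 19, 25, 28, 29 and 25, with covariate and block 19, 24, 28, 31 and 24. By limma with a pseudocount of 1 they were 12, 13 and 24 at D1, D3 and D7, and with 0.1 they were 10 and 10 at D1 and D3. Without a filter they were 3, 3 and 8, with RLE factors 3 at D3, and by DESeq2 20 at D49. The 14 libraries gave 10 at D3 and 43 at D7, the D21 and D49 libraries 10 and 5, and fits of a single age 0 at D1, 0 at D3, 44 at D7 and 2 at D49. With a library left out they were 2 to 5, 0 to 5, 3 to 9, 6 to 18 and 4 to 17.

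Listed genes that rose numbered 6, 10, 13, 21 and 15. With the GC covariate they were 13, 21, 24 and 23 at D1, D3, D7 and D49, and with covariate and block 13, 19, 25 and 23. The 14 libraries gave 24 at D3 and 32 at D7, and fits of a single age 0 at D1, 29 at D7 and 4 at D49. With a library left out they were 3 to 6, 4 to 9, 6 to 8, 13 to 21 and 11 to 23.

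The main fit did not use the replicate numbers of the titles to pair control and LPS samples. Deviations of same-numbered samples correlated by 0.83 and 0.67 (D1), 0.61 and 0.69 (D3), 0.137 and 0.0733 (D21), 0.558 and 0.292 (D49). Both D7 pairs gave 0.0975, values that must be equal with 2 libraries per arm. GC deviation also followed the number in some ages. For number 2, controls and LPS libraries read 2.29 and 2.83 (D1), 1.90 and 1.58 (D3), -2.07 and -1.33 (D49). It did not for number 2 of D7 (-0.57 and 0.38) or D21 (-2.14 and -0.20). No values are given for differently numbered samples, so whether the numbers mark pairs or a shared batch cannot be decided. The replicate block gave each number a single effect shared by all ages, so it did not model pairs within an age. With this block 742 genes fell at D21 and 509 at D49, and 8 of the 8 fell at both ages. A fit with pairs within each age was not made.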
